A study of Mus musculus with 6 samples.

Results

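Proteasome subunit genes were examined in the embryonic cardiac outflow tract (OFT), the vessel that joins the heart to the great arteries and later gives rise to the aortic and pulmonary roots. The genes were the 44 protein-coding genes, of 28777 genes in the counts table, whose symbol is Psma, Psmb, Psmc, Psmd or Psme followed by a number and at most 1 letter, and whose reads summed to more than 5 over the 6 libraries. All 44 were among the 28157 genes tested, and their summed counts began at 39 reads for *Psmb11*. The mean level was at least 10 CPM in 39 of them and at least 1 CPM in 41.

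Bulk RNA-Seq was performed on OFTs taken at E13.5, with 3 OFTs pooled per library, 3 libraries per group and 18 OFTs in all. One group is labelled *Notch1*+/-;*Nos3*-/-, heterozygous for the *Notch1* knockout and homozygous for the *Nos3* (endothelial nitric oxide synthase) knockout, and is called mutant here. The other is labelled wildtype and came from littermates of the same crosses, *Notch1*+/-;*Nos3*+/- males with *Nos3*+/- females kept on a C57/BL6J background. Both knockouts are carried in every cell of the embryo, and each pool mixes 3 embryos whose individual malformations, if any, are unknown. Whether the pools of a group came from separate litters is not stated, so p-values measure only the spread between pools. In bulk tissue, fewer cells of a type and less RNA per cell cannot be told apart.

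Depth was between 34729103 and 44387490 counts per library. Levels are CPM, read counts scaled to the size of the library after TMM, which sets libraries to a common level through the bulk of the genes, and values follow replicates 1, 2 and 3 of a group in order. As a check of the labels, *Nos3* was 31.8, 47.2 and 48.1 CPM in the libraries labelled wildtype and 22.1, 21.98 and 20.4 CPM in those labelled mutant (log2 fold change −0.98, SE 0.15, edgeR adjusted p = 0.128, DESeq2 adjusted p = 9.14e-06). The direction is that of the label, but reads remained under a label of a homozygous knockout, and gene counts do not show on which exons they fell. *Notch1* was 74.3, 88.2 and 83.6 CPM under the wildtype label and 155, 161 and 139 CPM under the mutant label. *Notch1* was therefore higher under the label that carries 1 knockout allele (log2 fold change 0.89, SE 0.10, edgeR adjusted p = 0.0313, DESeq2 adjusted p = 6.25e-11). The direction is not that of the label, but gene counts do not show from which allele or exons the reads came. The paper also lists *NOTCH1* among its differentially expressed genes. These counts do not settle the genotypes, so every direction below is between labels, not between checked genotypes. Wildtype replicates 2 and 3 have opposite library numbers in their titles and descriptions, and the numbers used here follow the titles.

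The proteasome is the barrel-shaped protease that degrades proteins tagged with ubiquitin. Its 20S core is built from outer rings of alpha subunits, which gate the entry, and inner rings of beta subunits, of which some are proteases, while the 19S regulatory particle binds the ubiquitin chain (lid and base), unfolds the substrate with a ring of ATPases and threads it into the core. Cells of the immune system, or cells exposed to interferon, exchange the standard proteases for immunoproteasome subunits, and in the heart the proteasome takes part in the turnover of contractile proteins.

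Most subunit genes had slightly lower values in the libraries labelled mutant, and none passed the test after adjustment. The log2 fold change of mutant against wildtype was negative for 41 of the 44 genes, where 48.8% of all genes tested and 58.2% of the genes that averaged 10 CPM or more were negative. The median of the 44 was −0.20, which is 86.8% of the wildtype level, beside a median of 0.011 over all genes tested and −0.046 over the genes with at least 10 CPM. The furthest values were −0.36 for *Psme1*, an activator cap, and *Psmb10*, an immunoproteasome protease, and 1.16 for *Psmb11*, a protease of the thymus counted by a few reads. The quasi-likelihood test of edgeR, with p-values adjusted by Benjamini-Hochberg and a threshold of 0.05, called 0 of the 44 genes, against 6 of 28157 genes, or 0.0213%, in either direction. At an unadjusted p under 0.05 the test gave 16 of the 44 genes, all lower, and 0 higher, where 7.83% of all genes tested and 14.9% of those with at least 10 CPM were lower at that p. DESeq2's Wald test called 1 gene, *Psmb7*, lower, where 1.91% of the 17781 genes it adjusted were called lower, and limma-voom called 0, where it called 0.0178% of all genes in either direction.

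Counts of genes whose libraries did not overlap gave the same picture. In 18 of the 44 genes all 3 mutant libraries lay below all 3 wildtype libraries, against 8.94% of all genes tested and 15.2% of those with at least 10 CPM. In 1 gene, *Psmb11*, all mutant libraries lay above, against 10.7% of all genes. For such genes the two-sided exact permutation test gave p = 0.1, the smallest that 3 libraries against 3 allow.

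**Figure D1:**
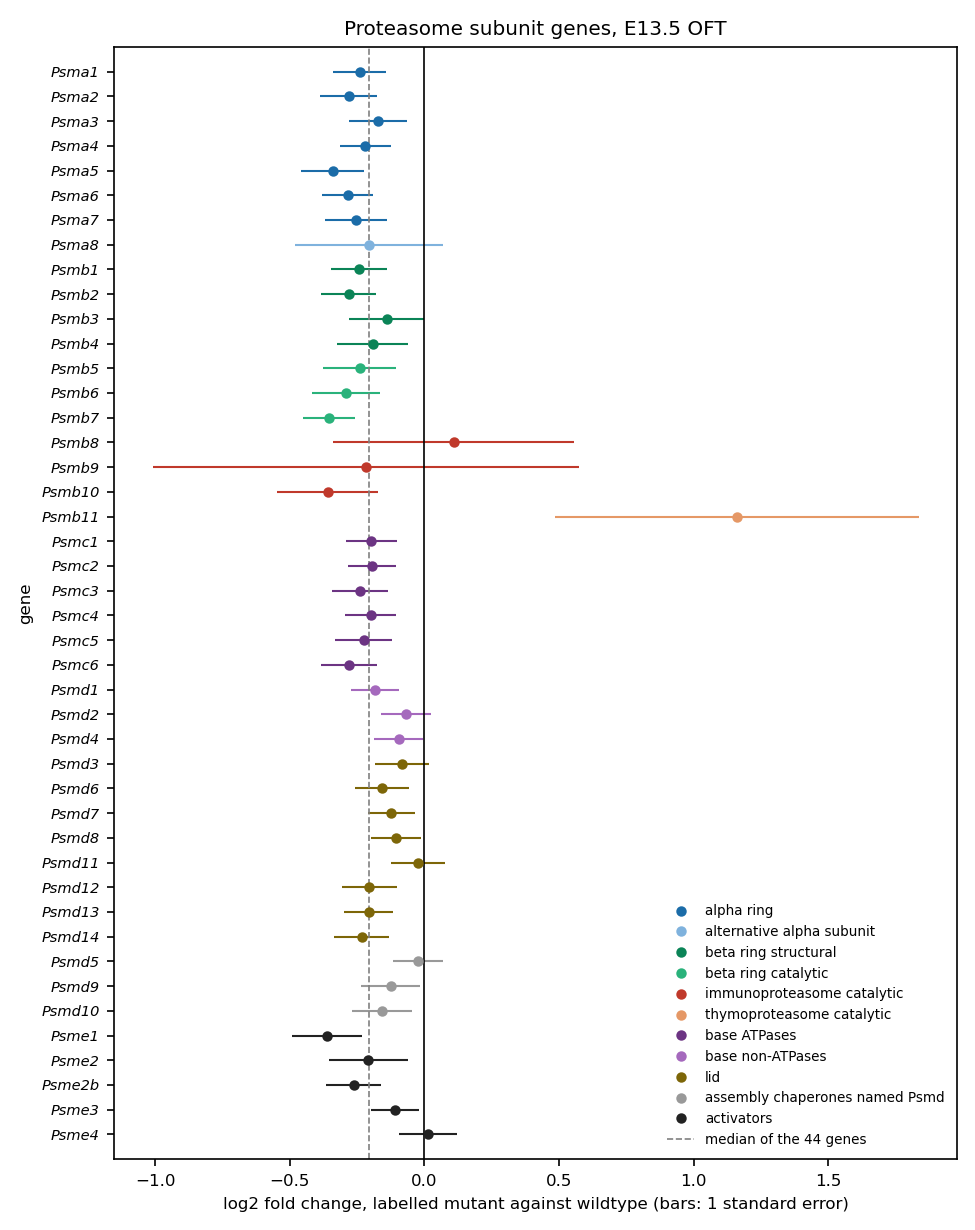
The log2 fold change of each of the 44 genes, libraries labelled mutant over libraries labelled wildtype (x axis, bars 1 standard error, 3 libraries per group), ordered and coloured by subcomplex, with a dashed line at their median of −0.20. All genes of the alpha ring, the constitutive beta ring, the base and the lid lie left of 0, and *Psmb8*, *Psmb9* and *Psmb11* have the widest bars.

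Wildtype replicate 1 stood between its group and the mutant libraries. The median deviation of the 44 genes from their own mean over the libraries, on the scale of log2 of CPM plus 0.5, was −0.012, 0.15 and 0.16 in the wildtype libraries and −0.081, −0.14 and −0.059 in the mutant libraries, with a standard deviation of 0.0747 between libraries of a group. Without wildtype replicate 1, edgeR called 13 of the 44 genes lower at an adjusted p of at most 0.05, where 5.3% of all genes were called lower. Among the genes with at least 10 CPM, 1315 of 11286 were called lower in that fit. These 13 were *Psma2*, *Psma5*, *Psma6*, *Psma7*, *Psmb1*, *Psmb2*, *Psmb4*, *Psmb5*, *Psmb6*, *Psmb7*, *Psmb10*, *Psmc3* and *Psme2b*. Of these, 10 belong to the constitutive core, which holds 14 of the 44 genes. For its 3 standard proteases, *Psmb5*, *Psmb6* and *Psmb7*, the median deviation of wildtype replicate 1 was −0.17, below that of every mutant library.

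The direction also depended on the scale. With scaling by library size only, 35 of the 44 genes were negative with a median of −0.095, while the median of all genes moved to 0.11, and the members lay −0.21 from it, close to the −0.22 under TMM. With the correction for GC content and gene length, the median of all genes moved to −0.095 and that of the 44 genes to −0.27, a distance of −0.18. On a scale per length (TPM, which divides counts by exon length and sets each library to a fixed sum), the summed level of the 44 genes was 2712, 2552 and 2644 TPM in the wildtype libraries and 2678, 2634 and 2625 TPM in the mutant libraries, so the groups overlapped. The mean TPM was lower under the mutant label for 18 of the 44 genes, or 40.9%, against 25.6% of the genes tested that have a length, and the median log2 ratio was 0.021 for the 44 genes against 0.22 for those genes. The 44 genes thus lay below the middle of all genes by about the same distance on each scale, whereas their position against 0 did not keep its sign on the scale per length.

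Markers of cell types differed between the libraries too. The 12 Myocardial markers were all negative (median log2 fold change −0.52), with a summed level of 30331 to 44312 CPM in the wildtype and 20491 to 29777 CPM in the mutant libraries, and their median deviations were 0.025, 0.14 and 0.56 in the wildtype and −0.27, −0.49 and 0.012 in the mutant libraries. All 7 Mesenchymal markers were positive (median 0.59; 4071 to 7950.4 against 7368 to 9445 CPM in sum), and all 6 Blood markers were negative (median −0.56; 3065 to 6278 against 3281 to 3414 CPM). Wildtype replicate 1 had the lowest proteasome values of the wildtype libraries in CPM, but not in TPM summed over the 44 genes. This library had a Mesenchymal deviation of 0.30 and a Blood deviation of −0.27, on the side of the mutant libraries in both lists. The medians of the Endothelial, VSMC (vascular smooth muscle cell), Epicardial and Macrophage lists were −0.11, 0.12, −0.20 and −0.073. The 5 Liver markers, of a tissue outside the OFT, were all negative (median −4.22). They summed to 1.33, 93.6 and 25.5 CPM in the wildtype and 2.57, 4.96 and 1.03 CPM in the mutant libraries. Here too wildtype replicate 1 was on the side of the mutant libraries, with a deviation of −1.41 against −0.68, −0.38 and −1.02. *Serpina1a* was at 0 in wildtype replicate 1 and in mutant replicates 1 and 3. With the mean level of the Myocardial markers as covariate, the median of the 44 genes was −0.12 and that of all genes −0.016. These 12 markers were themselves all lower under the mutant label, so this fit cannot separate their level from the label. The part of any marker list in the result was not tested.

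**Figure D2:**
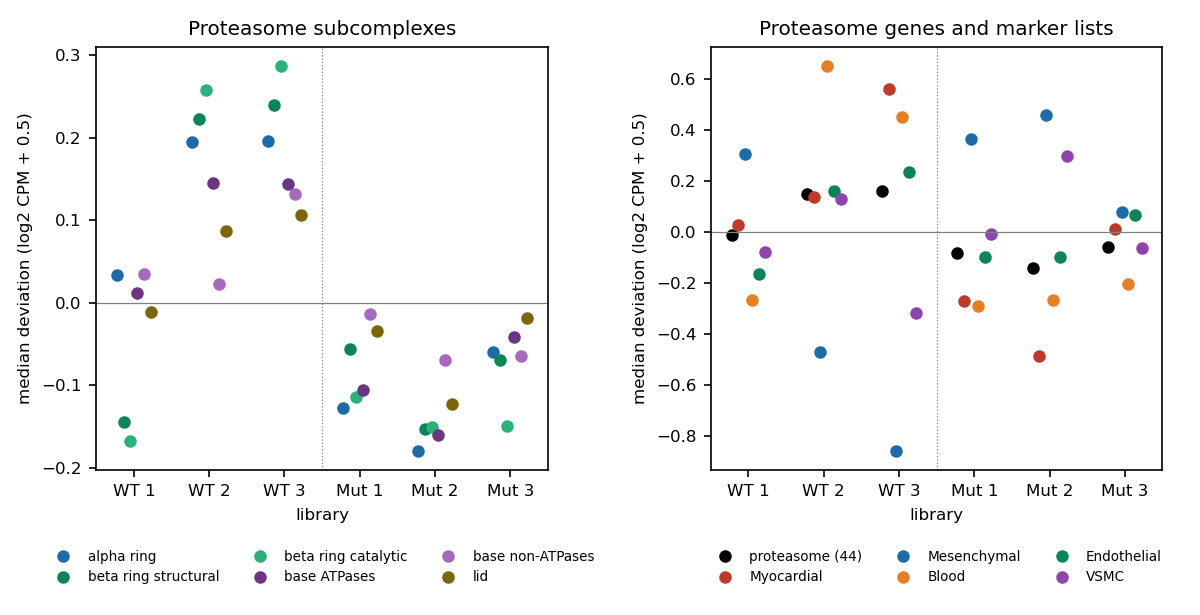
Median deviation from the gene's own mean (y axis, log2 of CPM plus 0.5) in each of the 6 libraries (x axis, WT wildtype, Mut mutant), for 6 subcomplexes on the left and for all 44 genes with 5 marker lists on the right, 1 point per list and library. The subcomplexes lie above 0 in wildtype replicates 2 and 3 and below 0 in all mutant libraries, with wildtype replicate 1 near 0 or, for the beta subunits, below it, while the marker lists spread more widely.

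Counts for each subcomplex below stand beside the shares among all genes with at least 10 CPM. Of those genes, 14.9% were lower at an unadjusted p under 0.05 and 15.2% were lower without overlap between groups. The alpha ring, the gate of the core, had the largest share of low values. All 7 genes (*Psma1* to *Psma7*) were negative, with a median log2 fold change of −0.25, 6 of them at an unadjusted p under 0.05 and 6 without overlap between groups. The lowest was *Psma5* (chr3:108256926-108279974, mm10), which had 21.6, 25.004 and 25.6 CPM in the wildtype and 21.1, 18.1 and 17.7 CPM in the mutant libraries (log2 fold change −0.34, SE 0.12, edgeR adjusted p = 0.2297). Every mutant library was below every wildtype library, by a narrow margin between wildtype replicate 1 and mutant replicate 1. The highest was *Psma3* (chr12:70974621-70996347), with 20.5, 19.7 and 23.3 CPM against 18.2, 18.8 and 19.3 CPM (log2 fold change −0.17, SE 0.11, edgeR adjusted p = 0.445). Its libraries did not overlap either, but the gap between the groups was smaller than the spread of the wildtype libraries. Of the transcript used, 81.4% of *Psma5* and 34.1% of *Psma3* matched other genes, among them processed pseudogenes, as given further on. *Psma6*, which has no such copy, went from 125 ± 7.97 CPM (SD, n = 3) to 103 ± 3.84 CPM (SD, n = 3), or 82.05% of the wildtype level in the fit (adjusted p = 0.224), and is named after its values were seen. *Psma8*, an alpha subunit otherwise known from the testis, was near 1 CPM in all libraries, with 1.12, 1.47 and 1.69 CPM against 1.099, 1.28 and 1.33 CPM (log2 fold change −0.21, SE 0.28, edgeR adjusted p = 0.756), and the groups overlapped.

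The structural subunits of the beta ring, which carry no active site, were *Psmb1*, *Psmb2*, *Psmb3* and *Psmb4*. All 4 were negative (median −0.22), 2 of them at an unadjusted p under 0.05 and 1 without overlap. That one was *Psmb2* (chr4:126677630-126709714), the lowest, with 106, 117 and 129.9 CPM in the wildtype and 98.2, 91.6 and 101 CPM in the mutant libraries (log2 fold change −0.28, SE 0.10, edgeR adjusted p = 0.244). *Psmb3*, the highest, had 23.5, 33.1 and 33.8 CPM against 28.8, 25.6 and 27.5 CPM (log2 fold change −0.14, SE 0.14, edgeR adjusted p = 0.656), and here wildtype replicate 1 lay below every mutant library.

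The constitutive proteases of the core are *Psmb5* (chymotrypsin-like), *Psmb6* (caspase-like) and *Psmb7* (trypsin-like). All 3 were negative, with the lowest median of any subcomplex of more than 1 gene, −0.29. *Psmb7* (chr2:38588036-38644087) had 89.2, 103 and 101 CPM in the wildtype and 77.8, 72.5 and 79.3 CPM in the mutant libraries. All mutant libraries were lower, and the means were 97.9 ± 7.61 CPM (SD, n = 3) and 76.5 ± 3.61 CPM (SD, n = 3), 78.2% of the wildtype level in the fit. Its adjusted p was the smallest of the 44 genes (log2 fold change −0.35, SE 0.097, edgeR adjusted p = 0.194), with a range of 0.01097 to 0.836 over the alternative settings and 0.0402 with DESeq2. On the TPM scale its mutant libraries were also all lower, from 41.7 to 43.3 TPM against 45.7 to 47.98 TPM. *Psmb6* (chr11:70525367-70527858) had 119, 164 and 163 CPM against 123, 120.2 and 120.2 CPM (log2 fold change −0.29, SE 0.13, edgeR adjusted p = 0.296). Its mutant libraries were almost equal, and wildtype replicate 1 fell below them all. *Psmb5* (chr14:54614119-54618022) had 41.1, 56.4 and 60.1 CPM against 47.6, 43.4 and 42.4 CPM (log2 fold change −0.24, SE 0.14, edgeR adjusted p = 0.404), again with wildtype replicate 1 below the mutant libraries. Over the alpha and beta rings together, 14 of 14 constitutive core genes were negative (median −0.25), 10 at an unadjusted p under 0.05 and 8 without overlap.

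Of the immunoproteasome proteases, *Psmb8* and *Psmb9* were low in this tissue, and *Psmb10* was not. *Psmb8* and *Psmb9* lie near each other on chromosome 17 (chr17:34197721-34201454 and chr17:34181987-34187764), and exons of *Psmb9* overlap the peptide transporter gene *Tap1*. Neither *Psmb8* nor *Psmb9* went above 1.01 CPM in any library. *Psmb8*, which replaces *Psmb5*, had 0.4499, 1.01 and 0.431 CPM in the wildtype and 0.7996, 0.8004 and 0.451 CPM in the mutant libraries (log2 fold change 0.11, SE 0.45, edgeR adjusted p = 0.933). *Psmb9*, which replaces *Psmb6*, was counted by 1, 32 and 16 reads in the wildtype and by 13, 19 and 10 reads in the mutant libraries, 0.0225, 0.771 and 0.493 against 0.325, 0.507 and 0.265 CPM (log2 fold change −0.22, SE 0.79, edgeR adjusted p = 0.924). The groups overlapped in both genes, and the single read in wildtype replicate 1 against 32 in wildtype replicate 2 shows how far pools of 1 group differed. *Psmb10*, which replaces *Psmb7*, was the most abundant of the trio (chr8:105935735-105938444), with 16.96, 27.2 and 31.2 CPM against 19.8, 17.9 and 20.95 CPM (log2 fold change −0.36, SE 0.19, edgeR adjusted p = 0.371). Wildtype replicate 1 was the lowest of its 6 libraries, and without it *Psmb10* was called lower (log2 fold change −0.58, edgeR adjusted p = 0.0214). *Psmb11*, the protease of the thymic cortex, had 4, 3 and 5 reads in the wildtype and 7, 9 and 11 reads in the mutant libraries (chr14:54621433-54629556; log2 fold change 1.16, SE 0.68, edgeR adjusted p = 0.418). These counts are at or just above the floor of 3 reads, although the groups did not overlap.

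**Figure D3:**
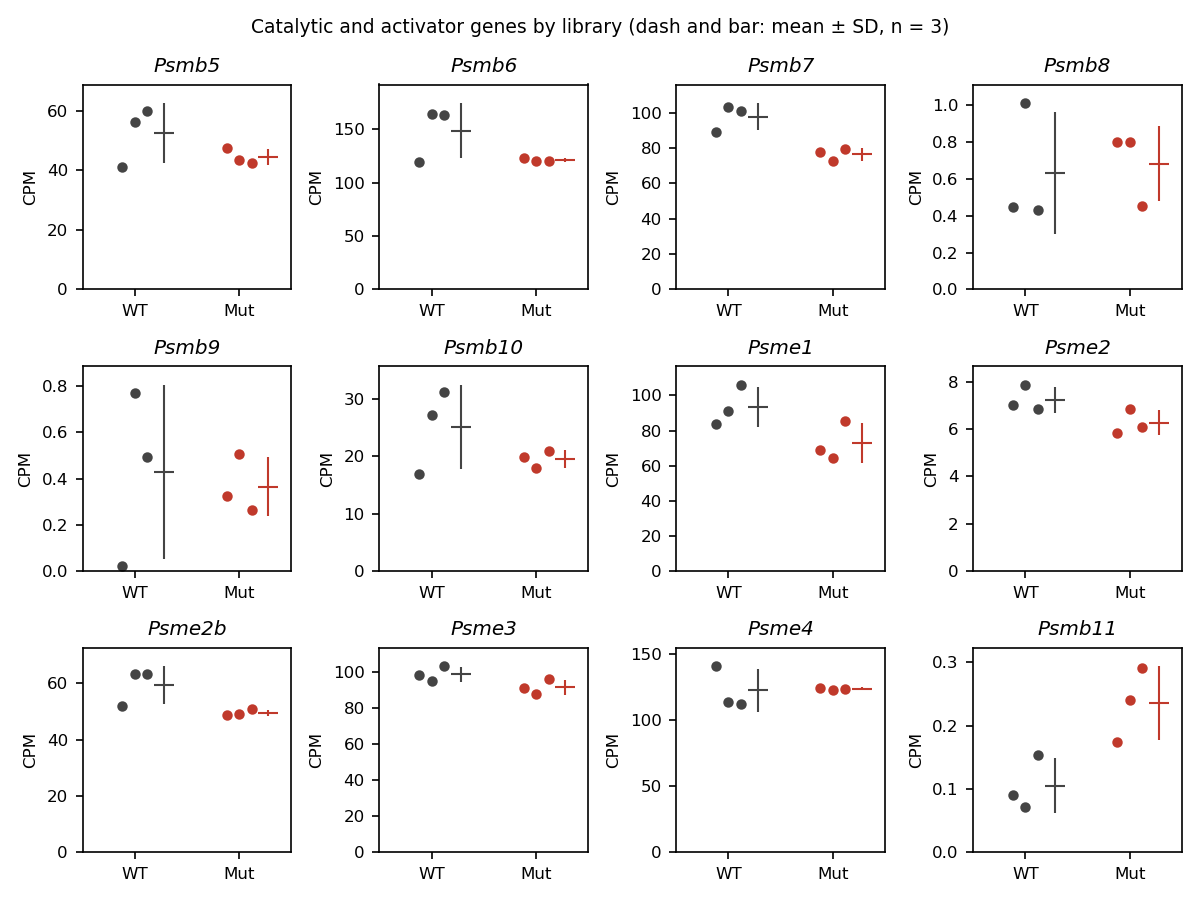
Levels in CPM (y axis, from 0) of the constitutive proteases, the immunoproteasome and thymic proteases and the activators in each wildtype (WT, grey) and mutant (Mut, red) library, replicates 1 to 3 from left to right, with the mean and SD beside them. *Psmb7* and *Psme2b* show no overlap between groups on the lower side and *Psmb11* on the higher side, and wildtype replicate 1 is the lowest point of the group in *Psmb5*, *Psmb6*, *Psmb7*, *Psmb9*, *Psmb10*, *Psme1* and *Psme2b*.

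The base of the 19S particle holds the ATPases *Psmc1* to *Psmc6*, which unfold the substrate. All 6 were negative within a narrow range around a median of −0.21, 2 at an unadjusted p under 0.05 and 5 without overlap. *Psmc6* (chr14:45329788-45349705), the lowest, had 147, 147 and 136 CPM in the wildtype and 111, 111 and 133 CPM in the mutant libraries (log2 fold change −0.28, SE 0.10, edgeR adjusted p = 0.249). Mutant replicate 3 came close to wildtype replicate 3, and the other 2 mutant libraries were lower. *Psmc2* (chr5:21785283-21803787), the highest, had 134, 145 and 144 CPM against 125, 119 and 126 CPM (log2 fold change −0.19, SE 0.091, edgeR adjusted p = 0.323), without overlap. The 3 other base genes, which are not ATPases, had a median of −0.10 and 0 at an unadjusted p under 0.05. *Psmd1*, a scaffold of the base, had 156, 147 and 160.4 CPM against 137, 133 and 139 CPM (log2 fold change −0.18, SE 0.090, edgeR adjusted p = 0.342), with all mutant libraries lower. *Psmd2*, the other scaffold, had 154, 143 and 164 CPM against 148, 143 and 148 CPM (log2 fold change −0.068, SE 0.094, edgeR adjusted p = 0.764) with overlapping groups.

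The 8 lid genes were all negative, with a median of −0.14, 2 at an unadjusted p under 0.05 and 3 without overlap. *Psmd14* (chr2:61711694-61800376), the enzyme that cuts the ubiquitin chain from the substrate, was the lowest, with 63.1, 68.6 and 62.5 CPM in the wildtype and 53.9, 50.5 and 60.8 CPM in the mutant libraries (log2 fold change −0.23, SE 0.10, edgeR adjusted p = 0.294). The nearest libraries of the groups were wildtype replicate 3 and mutant replicate 3. *Psmd11* (chr11:80428615-80473248), a lid subunit that touches the core, was the highest, with 31.5, 34.5 and 33.9 CPM against 32.98, 30.04 and 35.2 CPM (log2 fold change −0.023, SE 0.10, edgeR adjusted p = 0.936), and its mutant libraries lay on both sides of the wildtype ones. On the TPM scale *Psmd11* was one of 3 members with all mutant libraries higher, the others being *Psmd5* and *Psmb11*, and *Psma6* and *Psmb7* were the 2 with all mutant libraries lower, where 18.8% of the genes with a length were higher and 1.96% lower without overlap. Base and lid together gave 17 of 17 negative values with a median of −0.19, 4 at an unadjusted p under 0.05 and 9 without overlap.

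*Psmd5*, *Psmd9* and *Psmd10* carry subunit-like names but act as chaperones that assemble the base and leave it. All 3 were negative with a median of −0.13 and overlapping groups. The lowest, *Psmd10*, also known as the oncoprotein gankyrin, had 18.3, 20.1 and 21.2 CPM in the wildtype and 16.5, 18.1 and 18.8 CPM in the mutant libraries (log2 fold change −0.16, SE 0.11, edgeR adjusted p = 0.512). The highest, *Psmd5*, had 44.9, 50.2 and 46.3 CPM against 46.2, 44.9 and 48.03 CPM (log2 fold change −0.023, SE 0.092, edgeR adjusted p = 0.929).

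The activators cap the core in place of the 19S particle. *Psme1* and *Psme2* encode the interferon-inducible PA28 ring and lie near each other on chromosome 14 (chr14:55578123-55581529 and chr14:55587441-55591113). *Psme1* had 83.9, 90.8 and 106 CPM in the wildtype and 69.2, 64.1 and 85.4 CPM in the mutant libraries (log2 fold change −0.36, SE 0.13, edgeR adjusted p = 0.2397), with mutant replicate 3 just above wildtype replicate 1 and the rest of the groups apart. The paper lists the human homolog of *Psme1* among the genes differentially expressed in its own DESeq2 test. DESeq2 as run here gave *Psme1* an adjusted p of 0.127. *Psme2* had 6.996, 7.88 and 6.84 CPM against 5.85, 6.86 and 6.1003 CPM (log2 fold change −0.21, SE 0.15, edgeR adjusted p = 0.506), and the groups overlapped. *Psme2b*, on chromosome 11 (chr11:48945354-48946190), had 51.8, 63.1 and 63.4 CPM against 48.8, 49.1 and 50.7 CPM (log2 fold change −0.26, SE 0.10, edgeR adjusted p = 0.264), without overlap. *Psme3*, the nuclear activator PA28γ, had 98.4, 94.9 and 103 CPM against 91.004, 88.05 and 96.01 CPM (log2 fold change −0.11, SE 0.091, edgeR adjusted p = 0.584). *Psme4*, the large cap PA200, had 141, 114 and 112 CPM against 124, 122 and 124 CPM (log2 fold change 0.014, SE 0.11, edgeR adjusted p = 0.966), and wildtype replicate 1 was its highest library, opposite to most of the core genes.

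*Psme2* and *Psme2b* cannot be separated well by short reads. *Psme2b* is annotated as a single exon whose transcript of 837 bases covers the whole gene, and its coding sequence of 720 bases differs from that of *Psme2* at 5 positions (99.3% identity). The stretch with the most differences, bases 424 to 543 of the coding sequence in the GENCODE transcripts, is shown because reads can be told apart only where they cross a capital letter, which marks a base that differs between the genes.
Psme2: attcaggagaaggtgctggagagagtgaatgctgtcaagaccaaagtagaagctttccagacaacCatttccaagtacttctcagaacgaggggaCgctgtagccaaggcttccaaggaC
Psme2b: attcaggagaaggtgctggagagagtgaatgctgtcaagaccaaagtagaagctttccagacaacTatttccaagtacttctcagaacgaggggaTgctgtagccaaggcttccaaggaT
In this window 3 of the 5 differences fall, and the other two lie outside it. Of the transcripts, 82.5% of *Psme2* and 94.9% of *Psme2b* matched the other gene, and a read pair within that part that covers none of the differences fits both. *Psme2b* held 12686 reads over the 6 libraries and *Psme2* held 1581, so 88.9% of the reads of the pair were counted for the copy. Summed, the pair had a log2 fold change of −0.26 (SE 0.10, edgeR adjusted p = 0.264).

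Many reads were also counted on pseudogene copies of other subunits. Reads of a subunit gene and reads transcribed from its copy cannot be told apart in these counts. Genes elsewhere in the genome with at least 95% identity over at least 300 aligned bases of the transcript numbered 16, of which 13 were in the counts table, as copies of 8 members, and 10 of the 13 were pseudogenes. *Psma5* had 5021 reads of its own, whereas its processed pseudogenes *Gm8394* and *Gm12989* had 15867 and 13788, which is 85.5% of the sum. *Psma3* had 4648 reads, and *Gm13835*, identical to it over 665 bases, had 20590, so that 83.5% of the sum lay on copies. For *Psmb3* and *Psmb5* the share was 52.2% and 52.0%, for *Psma4* 42.6%, for *Psmd2* 32.4% and for *Psmd11* 11.3%. Levels and changes of these 8 genes are therefore uncertain, since the counting could divide reads among near-identical sequences. The copies themselves had a median log2 fold change of −0.19, with 10 of 13 negative, 4 lower without overlap and 0 called by edgeR (5 at an unadjusted p under 0.05). *Psme2b*, itself one of the 44 genes, is among these 13, among the 4 and among the 5. Of all genes tested, 48.8% were negative, 8.94% were lower without overlap and 7.83% were lower at that p. Among genes with at least 10 CPM, these shares were 58.2%, 15.2% and 14.9%. Adding the reads of the copies to their members, an alternative chosen after the data were seen, left 43 genes with a median of −0.20, 0 called and 16 at an unadjusted p under 0.05, and turned *Psmd11* to 0.013. The share of exon length that overlaps another gene was 25.5% for *Psmd9* (*Gm26745*), 14.7% for *Psmb8* (*Gm20496*), 12.1% for *Psmb5* (*Mir686*), 11.8% for *Psmb7* (*Nek6*), 10.1% for *Psmd13* (*Sirt3*), 8.25% for *Psmc3* (*Slc39a13*), 7.61% for *Psmd1* (*Gm21972* and *Htr2b*) and 5.79% for *Psmb9* (*Tap1*), and below 5% for the other members. The library kit keeps strand, but whether the counting used it is not stated.

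**Figure D4:**
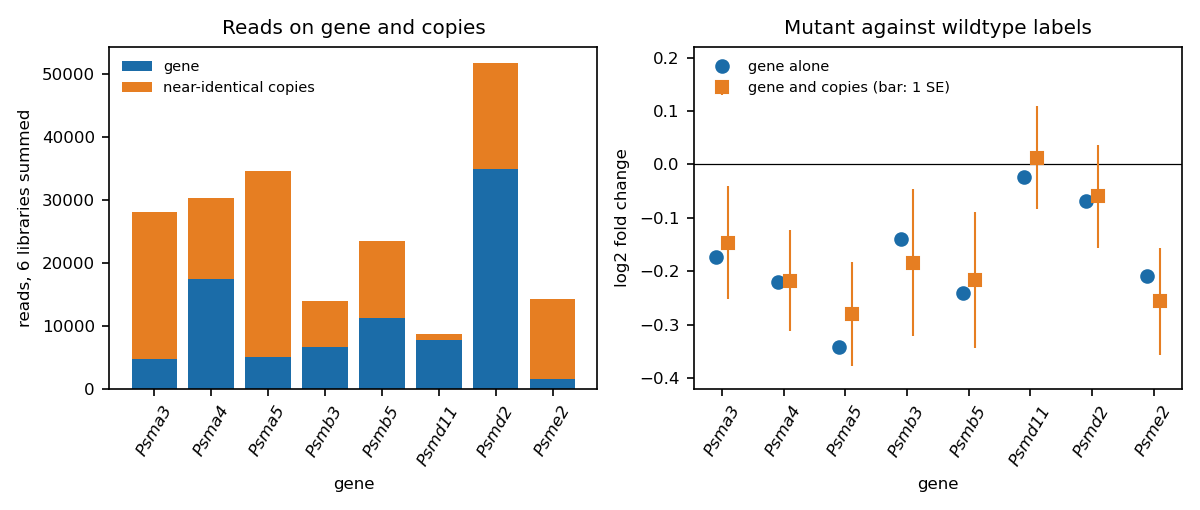
Reads summed over the 6 libraries on 8 proteasome genes and on their near-identical copies (left, stacked bars from 0), and the log2 fold change of mutant against wildtype for the gene alone and for gene and copies together (right, bars 1 SE). Copies hold most of the reads of *Psma3*, *Psma5*, *Psmb3*, *Psmb5* and *Psme2*, and the fold changes move little, from −0.34 to −0.28 in the case of *Psma5*.

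Levels per length were compared within each ring, whose subunits are present in equal number in the assembled particle. In TPM averaged over the 6 libraries, the alpha ring genes ran from 9.04 for *Psma3* to 162 for *Psma6*, a ratio of 17.9 between highest and lowest. With the reads of copies added, *Psma3* went from 9.04 to 54.6 and *Psma5* went from 28.5 to 197 TPM, and the ratio was 4.22. The constitutive beta ring ran from 21.9 TPM for *Psmb3* to 156 TPM for *Psmb2*, a ratio of 7.14, or 4.41 with copies added, where *Psmb5* became the highest at 197 TPM. The base ATPases, of which none had a copy with reads in the table, ran from 46.2 TPM for *Psmc2* to 153 TPM for *Psmc3*, a ratio of 3.32. The lid ran from 9.13 TPM for *Psmd11* to 102 TPM for *Psmd7*, a ratio of 11.2, or 9.91 with copies. The range within the core rings was thus narrower once the reads of copies were counted with their gene. Against these, *Psma8* had 0.935, *Psmb8* 0.344, *Psmb9* 0.186 and *Psmb11* 0.0646 TPM, and *Psmb10* had 22.7 TPM, beside 94.4 TPM for *Psmb5*, 126 TPM for *Psmb6* and 44.6 TPM for *Psmb7*.

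Promoters were read because genes of 1 complex had values on the same side. Windows of 300 bases, 250 before and 50 after the start, were found in RefSeq (GRCm38.p6) for 37 of the 44 genes. The core of the antioxidant response element (TGACNNNGC, either strand), the motif bound by *Nfe2l1*, which drives proteasome genes when the enzyme is inhibited, was present in 6 of 37 genes, or 16.2%, against 13.99% of all 27025 genes. It began 47 bases before the start in *Psmb5*, 9 before in *Psmb6*, 31 before in *Psmd9* and 7 before in *Psme4*, and further out in *Psmc6* and *Psmd12*. The NF-Y box (CCAAT) was present in 14 of 37, or 37.8%, against 41.1% of all genes. The interferon response element (GAAANNGAAA) was present in 4 of 37, or 10.8%, against 3.99%, namely in *Psmb3*, *Psmd4*, *Psmd9* and *Psme1*. These are matches of letters only, and they do not overlap in the sequences shown. The 250 bases before the start are given for 2 proteases and an ATPase with the antioxidant core and for an alpha subunit with an NF-Y box, with the motif in capitals.
*Psmb5* (chr14:54617996-54618245, minus strand): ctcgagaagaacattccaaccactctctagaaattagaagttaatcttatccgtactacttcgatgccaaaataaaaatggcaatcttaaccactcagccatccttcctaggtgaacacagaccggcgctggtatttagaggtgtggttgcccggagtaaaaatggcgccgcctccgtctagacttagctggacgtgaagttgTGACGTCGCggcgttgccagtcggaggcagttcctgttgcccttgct
*Psmb6* (chr11:70525107-70525356, plus strand): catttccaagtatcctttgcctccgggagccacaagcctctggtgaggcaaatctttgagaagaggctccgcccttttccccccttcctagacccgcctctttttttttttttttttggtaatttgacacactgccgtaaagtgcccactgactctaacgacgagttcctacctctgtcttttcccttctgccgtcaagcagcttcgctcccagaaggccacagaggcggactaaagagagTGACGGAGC
*Psmc6* (chr14:45329574-45329823, plus strand): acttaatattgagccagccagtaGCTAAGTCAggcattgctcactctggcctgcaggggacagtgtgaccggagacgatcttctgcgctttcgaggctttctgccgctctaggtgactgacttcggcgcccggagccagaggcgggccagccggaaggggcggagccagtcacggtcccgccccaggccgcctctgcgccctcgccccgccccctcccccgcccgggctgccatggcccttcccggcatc
*Psma2* (chr13:14612992-14613241, plus strand): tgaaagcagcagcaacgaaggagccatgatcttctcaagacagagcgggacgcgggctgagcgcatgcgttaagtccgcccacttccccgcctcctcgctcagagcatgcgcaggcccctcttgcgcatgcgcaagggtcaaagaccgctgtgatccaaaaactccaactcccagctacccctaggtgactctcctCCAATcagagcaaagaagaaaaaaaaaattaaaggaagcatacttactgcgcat
The log2 fold changes of these genes were −0.24, −0.29, −0.28 and −0.28, in the order shown. In the other genes with the antioxidant core they were −0.20 for *Psmd12*, −0.13 for *Psmd9* and 0.014 for *Psme4*. Whether a motif goes with the fold change was not tested.

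Genes that work with the proteasome were taken from a list of 40, of which 39 were tested. The list holds assembly factors, bound enzymes, the transcription factors of the proteasome genes, ubiquitin and its activating enzymes, delivery factors and antigen presentation. edgeR called 0 of the 39, DESeq2 0 and limma-voom 0. The log2 fold change was negative in 29, with a median of −0.10, 7 lower and 1 higher at an unadjusted p under 0.05, and 8 lower and 2 higher without overlap. Among all genes whose mean reached 10 CPM, 58.2% had a negative log2 fold change, 14.9% were lower at an unadjusted p under 0.05 and 15.2% were lower without overlap, so the last 2 counts of the partner genes on the lower side lie near those of other expressed genes. The medians were −0.21 for assembly factors and the core inhibitor, −0.17 for bound enzymes, −0.16 for 2 subunits with other names, −0.10 for ubiquitin and its activation, −0.090 for delivery, −0.036 for transcriptional control and −0.023 for antigen presentation. Among the lowest were *Uchl5*, a deubiquitinase of the 19S particle, and *Sem1*, a small lid subunit. *Uchl5* had 31.1, 30.5 and 31.5 CPM in the wildtype and 23.1, 20.4 and 27.7 CPM in the mutant libraries (log2 fold change −0.38, SE 0.12, edgeR adjusted p = 0.209), and *Sem1* had 145, 185 and 193 CPM against 132, 124 and 152 CPM (log2 fold change −0.36, SE 0.13, edgeR adjusted p = 0.2397). The groups did not overlap in *Uchl5*. The 3 highest belong to antigen presentation. *Tapbp*, which loads peptides made by the proteasome onto MHC class I, had 38.96, 36.6 and 36.9 CPM against 48.03, 42.5 and 46.1 CPM (log2 fold change 0.28, SE 0.093, edgeR adjusted p = 0.224), with all mutant libraries higher. *Irf1*, an interferon response factor, had 10.2, 8.96 and 11.1 CPM against 10.1, 14.9 and 11.4 CPM, and *H2-K1*, an MHC class I chain, had 13.002, 16.2 and 13.7 CPM against 16.8, 17.3 and 15.4 CPM, both with overlapping groups. *Nfe2l1* itself had 232, 219 and 245 CPM against 221, 231 and 227 CPM (log2 fold change −0.036, SE 0.094, edgeR adjusted p = 0.885), and *Pomp*, the factor that matures the 20S core, had 96.5, 116 and 114 CPM against 88.3, 89.03 and 94.3 CPM (log2 fold change −0.27, SE 0.10, edgeR adjusted p = 0.254), without overlap on the lower side. Both are named after their values were seen.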

How the data were processed

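Bulk RNA-Seq of 6 libraries, each 3 pooled E13.5 OFTs, was analysed. The authors trimmed the reads, aligned them to mm10 with TopHat2 2.1.0 and Bowtie2, and summed the reads that fell on exons of each gene with GenomicAlignments. These deposited counts are whole numbers and carry no normalization. The authors' own test was DESeq2 1.26.0 without shrinkage. Single-cell and patient data of the study were not analysed here.

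Groups follow the labels of the samples. The counts were normalized by TMM and fitted in R 4.3.3 with edgeR 4.0.16 over the 28157 genes with a summed count above 5, and adjusted by Benjamini-Hochberg over all of them, at an adjusted p of at most 0.05. Single genes were also compared with a two-sided exact permutation test on log2 values (CPM with 0.5 added). The script was checked on simulated data. Alternatives were DESeq2 1.42.0, limma-voom (limma 3.58.1), other scalings, other filters, an adjusted p of at most 0.01, a replicate block, a correction for GC content and length, a Myocardial covariate and each library left out in turn. The depth of 34729103 to 44387490 counts per library bounds the precision, and the floor was 3 reads, which covers counting error only.

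The members and the lists of subcomplexes, partner genes and markers were chosen with earlier results of these data known, so no list was tested. Values in every library are given for the catalytic members, the activators, any member called by edgeR over all 6 libraries, and the genes with the highest and the lowest fold change of each other subcomplex, with the 3 highest and 3 lowest partner genes, of which 1 is not reported here. *Psma6*, *Nfe2l1* and *Pomp* were added after their values were seen. Positions and the union of exon lengths came from GENCODE M21 (mm10), to which 28723 of the 28777 identifiers matched and 54 did not. Copies were found by alignment of transcripts. Promoters came from RefSeq (GRCm38.p6). Proteins were not compared, and the partner *Paaf1* was not analysed here.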

Additional observations from a re-analysis of the deposited data

How the results depend on the processing

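The count of members called, 0 under the reported settings, was 1 with DESeq2 (*Psmb7*), 1 with a replicate block on the title numbers (*Psme1*, where 2.42% of all genes were called lower), 19 with the replicate block together with the GC and length correction (where 9.45% of all genes were called lower), and 0 to 13 when libraries were left out in turn, 13 only without wildtype replicate 1. It was 0 with limma-voom, without a filter, with edgeR's filterByExpr, by library size only, with DESeq2's size factors, the block with description numbers, the GC and length correction alone, the Myocardial covariate, an adjusted p of at most 0.01 and the copies summed. Partner genes called, 0 as reported, were 1 with the replicate block, 11 with block and correction, and 0 to 3 with libraries left out (3 without wildtype replicate 1). Over all genes the calls went from 6 to 749 with DESeq2, 1577 with the block, 83 with the block on the description numbers, 3296 with block and correction, 2 with the Myocardial covariate, 2 at an adjusted p of at most 0.01, and 1 to 2593 with libraries left out.

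The replicate numbers were not used as pairs. Over 16655 genes, the deviations of same-numbered wildtype and mutant libraries correlated at 0.096, 0.16 and 0.42 by the titles and at 0.096, −0.12 and −0.44 by the descriptions, and wildtype replicate 1 correlated best with mutant replicate 2. Whether libraries of the same number share a litter or a batch is not stated, and these correlations do not settle it. The calls under the block are given here only.

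The median of the members, −0.20 as reported, was −0.095 by library size only, −0.12 with the Myocardial covariate, 0.021 on the scale per length (added after the data were seen) and −0.25 to −0.17 with libraries left out. By the length of the longest transcript, the ratio of highest to lowest level was 15.5 in the alpha ring and 7.45 in the lid.

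Of 747 member values under the alternative fits, 28 changed sign and 34 were past the threshold, and 34 members never changed sign. With the Myocardial covariate, *Psmb3* was 0.018, *Psmb8* −0.48, *Psmd11* 0.085, *Psmd2* 0.0061, *Psmd5* 0.0081 and *Psme4* −0.056. With the GC and length correction, *Psmb8* was −0.019 and *Psme4* −0.14. With limma-voom, *Psmb9* was 0.74. With the block, *Psmb9* was 0.15. With the block on description numbers, *Psmb9* was 0.19. By library size only, *Psmd11* was 0.081, *Psmd2* 0.037, *Psmd3* 0.024, *Psmd4* 0.011, *Psmd5* 0.081 and *Psmd8* 0.00045. With block and correction, *Psme4* was −0.14. With copies summed, a fit that is not among the 747 values, *Psmd11* was 0.013. With libraries left out in turn, values ran from −0.093 to 0.63 for *Psmb8*, −0.79 to 0.57 for *Psmb9*, −0.079 to 0.035 for *Psmd11*, −0.058 to 0.024 for *Psmd5* and −0.044 to 0.13 for *Psme4*. The cause of these changes of sign was not tested. The genes concerned were about 1 standard error or less from 0 as reported.

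With 3 pools a group and a biological coefficient of variation of 0.17, a p that misses the threshold is no sign that levels were equal. Counts of near-identical genes and levels of genes with few reads are limited by the counting, not by depth alone.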
